A study of Homo sapiens with 18 samples.

Results

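Polycomb repressive complex 2 (PRC2) was followed through 10 of its subunit genes: the core subunits EZH2, EZH1, EED, SUZ12, RBBP4 and RBBP7, and the accessory subunits JARID2, AEBP2, MTF2 and PHF19. They were taken from the count table by gene symbol, as a set proposed with earlier results of these data known, and 10 of 10 were found among the 58735 genes of the deposited count table. All 10 passed the filter on low counts, so each could be tested. The tumours came from OCI-Ly18, a human cell line of diffuse large B-cell lymphoma that carried green fluorescent protein (GFP) and was grown under the skin of NSG mice, an immunodeficient strain that lacks T, B and NK cells of its own. The vehicle group was 3 mice dosed with vehicle for 14 days from day 3 after implantation, and the tazemetostat group 3 mice dosed with tazemetostat (EPZ6438) at 150 mg/kg daily by oral gavage over the same days. All 6 mice of both groups then received CART19, T cells engineered with a chimeric antigen receptor, and GFP+ tumour cells were sorted 11 days after that infusion. Each mouse gave 3 libraries, lettered A to C, which were summed, so that n is 3 mice per group. One cell line was used, so the mice replicate the host and the treatment and not the lymphoma. The sources used here state neither the age or sex of the mice, nor whether dosing went on after the infusion, nor what the letters A to C mean. P-values here set the group difference against the spread between these mice, not between lymphomas. Tumours of mice infused with UTD in place of CART19 were not analysed here.

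PRC2 places methyl groups on lysine of histone H3 at the site known as H3K27, a mark of silenced genes. EZH2 and EZH1 are alternative catalytic subunits, EED reads the finished mark and stimulates the enzyme, SUZ12 is the scaffold, and RBBP4 and RBBP7 are related histone-binding proteins that also serve other chromatin complexes. MTF2 and PHF19 define one form of the complex and JARID2 with AEBP2 another. Germinal center B cells, the normal counterpart of many lymphomas of this kind, express EZH2 strongly, and tazemetostat blocks the catalytic site of the EZH2 protein. Its effect on histone methylation was not measured in these RNA data.

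EZH2 is the drug target and EZH1 the alternative catalytic subunit. Their upstream sequences are shown with that of MTF2, an accessory subunit on the other side of the comparison from EZH1. The sequences are from RefSeq (build GRCh38.p14), written 5′ to 3′ on the strand of the gene, and cover those of the 250 bases before the start that lie in no exon of GENCODE release 29. They lie at chr7:148884322-148884541 (minus strand, EZH2), chr17:42745050-42745290 (minus strand, EZH1) and chr1:93079033-93079234 (plus strand, MTF2). Capitals mark CCAAT on either strand, the letters bound by the factor NF-Y.
EZH2: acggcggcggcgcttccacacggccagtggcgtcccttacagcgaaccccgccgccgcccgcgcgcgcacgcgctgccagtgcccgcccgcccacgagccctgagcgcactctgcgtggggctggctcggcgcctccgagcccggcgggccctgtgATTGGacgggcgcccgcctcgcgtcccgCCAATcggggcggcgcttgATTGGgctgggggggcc
EZH1: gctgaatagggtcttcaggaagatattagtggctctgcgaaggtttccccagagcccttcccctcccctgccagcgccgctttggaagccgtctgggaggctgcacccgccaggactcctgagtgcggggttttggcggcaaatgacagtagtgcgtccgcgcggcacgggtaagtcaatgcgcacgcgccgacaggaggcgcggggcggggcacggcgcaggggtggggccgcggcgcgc
MTF2: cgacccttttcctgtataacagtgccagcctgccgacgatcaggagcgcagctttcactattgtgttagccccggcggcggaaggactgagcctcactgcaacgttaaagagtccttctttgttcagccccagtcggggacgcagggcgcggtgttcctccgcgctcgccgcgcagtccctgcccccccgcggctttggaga
The printed EZH2 stretch, at the upstream of 2 starts that RefSeq lists for the gene, held 3 CCAAT matches, and the EZH1 and MTF2 stretches held none. The window of the other EZH2 start held no CCAAT. The 10 members have 15 windows of 250 bases, since EZH2, RBBP4, RBBP7, JARID2 and PHF19 have 2 starts each. CCAAT was found in 10 of these 15 windows (of EED, EZH2, JARID2, PHF19, RBBP4, RBBP7 and SUZ12) and in 32.0% of 35116 RefSeq windows of the same length. The 2 windows of RBBP4 overlap, and the only CCAAT of the downstream one is also counted in the other. The 15 windows are therefore not independent. The letters TTTCGCGC, TTTGGCGC and TTTCCCGC, forms of the E2F motif, were searched on both strands. Any of them was found in 2 of the 15 windows, that of SUZ12 and 1 of the 2 of PHF19, and in 2.32% of all windows. The letters TTTGAA, known as the CHR element, were found in 1 of the 15 windows, that of SUZ12, and in 13.3% of all windows. These matches describe letters only.

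Levels between subunits were compared as CPM (read counts brought to a common library total with TMM factors) per kilobase of the deposited gene length. EZH2 was the most abundant at 45.9 ± 1.73 CPM per kilobase (SD, n = 6 mice of both groups). RBBP4 followed at 34.4 ± 0.982, RBBP7 at 33.0 ± 1.85 and SUZ12 at 32.7 ± 1.80, all in CPM per kilobase, and the mice of these 3 neighbours overlapped. EZH1 stood below them at 14.7 ± 1.36 CPM per kilobase, with no overlap with SUZ12 above it or MTF2 below it. The accessory subunits were scarcer than those 5 core subunits, with MTF2 at 10.7 ± 0.833, PHF19 at 8.56 ± 0.783, JARID2 at 8.39 ± 0.749 and AEBP2 at 6.37 ± 0.437 CPM per kilobase. EED was the lowest core subunit at 5.38 ± 0.479 CPM per kilobase. Among the lower subunits MTF2, PHF19 and JARID2 overlapped their neighbours, JARID2 did not overlap AEBP2, and AEBP2 overlapped EED.

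The deposited length equals all exons of a gene joined, which is longer than any single transcript. With the length of the principal GENCODE 29 transcript, an alternative chosen after the data were seen, RBBP7 came first at 104 ± 5.86 CPM per kilobase and EZH2 next at 78.6 ± 2.97. EED moved most in rank, from the tenth place to the sixth at 17 ± 1.51 CPM per kilobase, because its principal transcript of 2223 bases is much shorter than its joined exons of 7016 bases. The accessory subunits remained below EZH2, SUZ12, RBBP4, RBBP7 and EZH1 on both lengths.

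**Figure D1:**
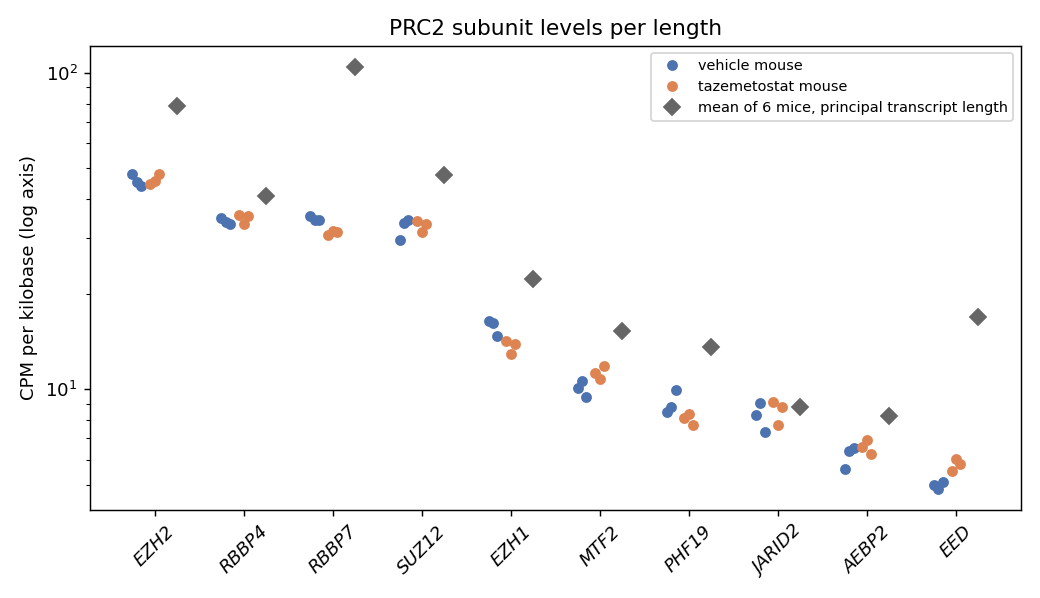
Levels of the 10 subunits in CPM per kilobase on a log axis, ordered by their mean over 6 mice. Circles are single mice on the deposited gene length (blue vehicle, orange tazemetostat) and diamonds the 6-mouse mean on the principal transcript length; on the deposited length EZH2 is highest at 45.9 and EED lowest at 5.38.

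None of the 10 subunits passed the test between groups (edgeR quasi-likelihood, adjusted p from 0.679 to 0.992 over all 20301 genes tested). Of all tested genes 0.0345% passed. Without overlap between the 3 vehicle and 3 tazemetostat mice, 2 subunits were higher in the tazemetostat group (EED and MTF2) and 3 were lower (EZH1, RBBP7 and PHF19). In all tested genes 12.6% did not overlap, 6.58% on the higher side and 6% on the lower. At an unadjusted p under 0.05 there were 2 subunits, EED and EZH1, beside 6.55% of all tested genes. DESeq2 and limma-voom likewise called 0 of 10 and had the same 2 subunits under 0.05 unadjusted. Which subunits fell under 0.05 unadjusted moved with the setting. They were EZH1 and PHF19 with upper-quartile factors, and EZH1, RBBP7, MTF2 and PHF19 in both fits of the 18 libraries with mouse as random effect. None did so without a low-count filter or without mouse M_768, M_769 or M_774. The differences were small in size, with log2 fold changes (tazemetostat against vehicle) from -0.21 to 0.22 and a median of 0.027 over the 10, where the median of all tested genes was -0.0091. The median size of a log2 fold change without regard to sign was 0.13 over all tested genes. Given how the set was chosen, these counts are descriptions.

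EZH2, the drug target, was level between the groups. The vehicle mice M_766, M_769 and M_770 were at 217, 205 and 199 CPM, and the tazemetostat mice M_767, M_768 and M_774 at 201, 206 and 217 CPM. The groups covered almost the same range. Means were 207 ± 9.02 and 208 ± 8.40 CPM (SD, n = 3 mice each), and the log2 fold change was 0.0088 (SE 0.0853, edgeR adjusted p = 0.992). Its 95% interval ran from -0.18 to 0.20, or 0.882-fold to 1.15-fold, which leaves out larger changes in either direction. In the 9 vehicle libraries EZH2 ran from 193 over a median of 204 to 220 CPM, and in the 9 tazemetostat libraries from 196 over 210 to 219 CPM. Libraries of 1 mouse had an SD of 0.0286 on the log2 CPM scale and mice of 1 group one of 0.0614. These were sorted cells measured in bulk, in which fewer cells of a type and less RNA per cell cannot be told apart.

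EZH1, the paralog of EZH2 that can form a PRC2 of its own, was lower in all 3 tazemetostat mice than in any vehicle mouse. It was at 115, 113 and 103 CPM in vehicle mice M_766, M_769 and M_770 and at 99.0, 90.3 and 97.1 CPM in tazemetostat mice M_767, M_768 and M_774. The nearest mice of the 2 groups, M_770 and M_767, differed little. Means were 110 ± 6.22 and 95.5 ± 4.56 CPM (n = 3 each), a log2 fold change of -0.21 (SE 0.0874, 95% interval -0.40 to -0.016, edgeR adjusted p = 0.714). Library C of mouse M_768 was at 72.9 CPM, against 97.4 and 97.5 CPM in libraries A and B of that mouse. Without it the mouse was at 98.3 CPM, the log2 fold change was -0.17 (95% interval -0.35 to 0.0015), and the groups still did not overlap.

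EED, whose product reads the methylated histone tail, was on the other side. Vehicle mice M_766, M_769 and M_770 held 34.9, 34.0 and 35.8 CPM, and tazemetostat mice M_767, M_768 and M_774 held 38.7, 42.4 and 40.6 CPM. The vehicle mice were close together and all below the tazemetostat mice. Means were 34.9 ± 0.876 and 40.6 ± 1.85 CPM (n = 3 each), with a log2 fold change of 0.22 (SE 0.0851, 95% interval 0.028 to 0.41, edgeR adjusted p = 0.679). The 9 libraries of one group barely cleared the other, with 36.33 CPM as the highest vehicle library and 36.34 CPM as the lowest tazemetostat library. Here too library C of mouse M_768 stood apart, at 55.6 CPM against 39.2 and 36.3 CPM in A and B. Without it the log2 fold change was 0.16 (95% interval -0.0093 to 0.34).

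SUZ12, the scaffold subunit, overlapped between the groups. It was at 194, 220 and 224 CPM in the vehicle mice and at 222, 206 and 218 CPM in the tazemetostat mice (mice in the order above), with mouse M_766 the lowest. Means were 213 ± 16.4 and 216 ± 8.43 CPM, with a log2 fold change of 0.021 (95% interval -0.18 to 0.22, edgeR adjusted p = 0.984). Its reads are uncertain, because 9.68% of the 50-base stretches of its principal transcript occur exactly in SUZ12P1, a transcribed pseudogene at chromosome 17, 30709299 to 30790908. SUZ12P1 itself held 26.5% as many counts as SUZ12 and had a log2 fold change of -0.12 (edgeR adjusted p = 0.895).

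The histone-binding subunits differed from each other. RBBP4 was at 329, 321 and 315 CPM in the vehicle mice and at 337, 317 and 334 CPM in the tazemetostat mice, ranges that overlap (log2 fold change 0.034, 95% interval -0.15 to 0.22, edgeR adjusted p = 0.978). RBBP7 was at 261, 253 and 253 CPM in the vehicle mice and at 227, 234 and 233 CPM in the tazemetostat mice. The groups of RBBP7 did not overlap, and mice within a group lay close together. Means were 256 ± 4.26 and 232 ± 3.61 CPM (log2 fold change -0.14, SE 0.0812, 95% interval -0.32 to 0.037, edgeR adjusted p = 0.831). Library C of mouse M_768 was at 274 CPM, above all 9 vehicle libraries, while the other 8 tazemetostat libraries were below every vehicle library. Without it the log2 fold change of RBBP7 was -0.17.

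Counts of both genes carry an overlap with a neighbour. The gene model of RBBP7 overlaps the coding gene TXLNG on the opposite strand by 5237 bases, and TXLNG held 26.0% as many counts as RBBP7. That of RBBP4 overlaps SYNC on the opposite strand by 5852 bases, and SYNC held 2 counts in all 6 mice together. Of the 50-base stretches of the principal transcript of RBBP4, 25.8% occur exactly in another gene, mostly SYNC and the processed pseudogenes RBBP4P1 and RBBP4P2. Since the strand setting of the counting is not given in the sources used here, both genes are uncertain. For EZH1, JARID2, AEBP2, MTF2 and PHF19 no such stretch was shared with another gene (0%), and for EED and EZH2 the share was 0.184% and 1.39%.

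**Figure D2:**
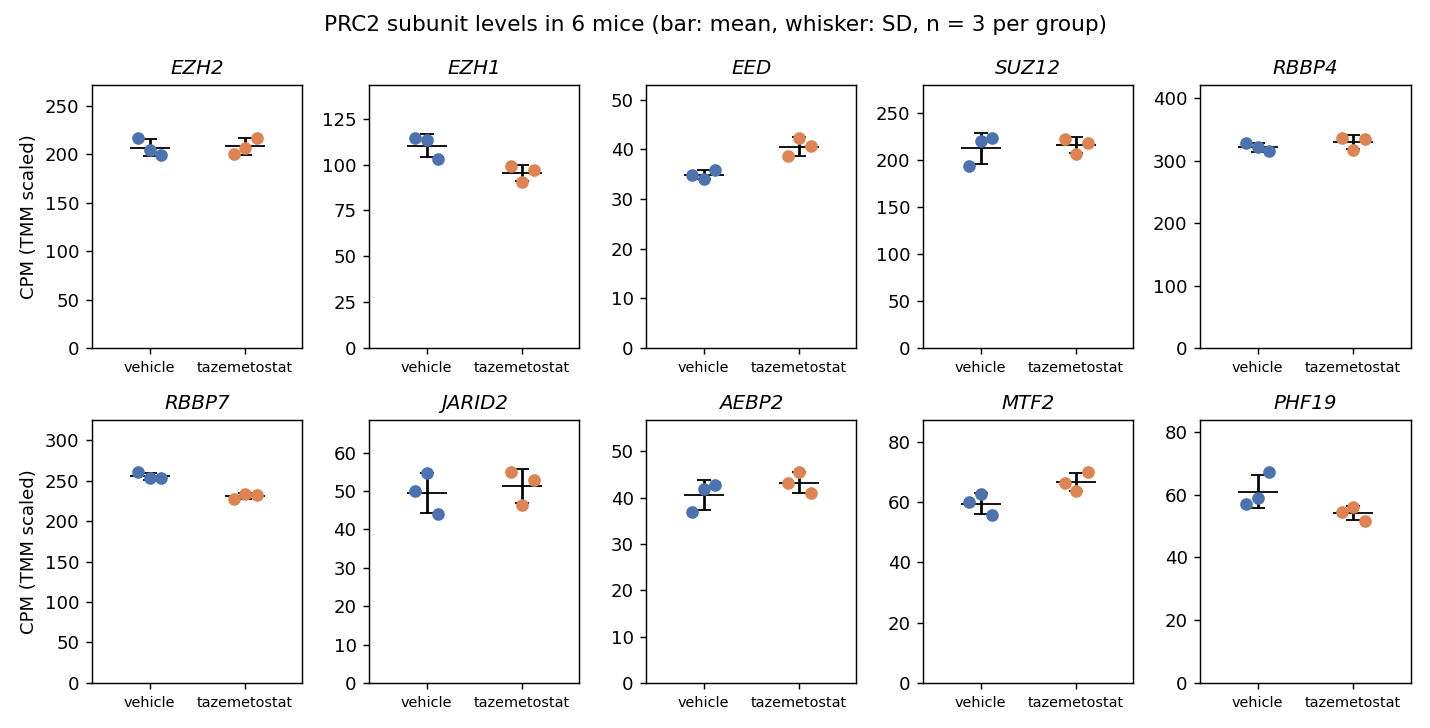
CPM of each subunit in 6 mice, vehicle in blue and tazemetostat in orange, with the mean as a bar and the SD as a whisker (n = 3 mice per group); axes start at 0. EED and MTF2 do not overlap with the tazemetostat mice higher, EZH1, RBBP7 and PHF19 do not overlap with them lower, and the other 5 subunits overlap.

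The accessory subunits held one gene on each side. MTF2, a Polycomb-like protein that binds CpG-rich DNA, was at 59.9, 62.6 and 55.8 CPM in vehicle mice M_766, M_769 and M_770 and at 66.5, 63.7 and 69.9 CPM in tazemetostat mice M_767, M_768 and M_774. Mice M_769 and M_768 were the nearest between the groups. Means were 59.4 ± 3.43 and 66.7 ± 3.08 CPM (n = 3 each, log2 fold change 0.17, SE 0.0874, 95% interval -0.028 to 0.36, edgeR adjusted p = 0.814). Over libraries the groups of MTF2 overlapped, at 52.6 to 67.3 CPM in vehicle and 62.6 to 71.6 CPM in tazemetostat.

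PHF19, also a Polycomb-like protein, was at 56.9, 59.0 and 67.2 CPM in the vehicle mice and at 54.5, 56.2 and 51.8 CPM in the tazemetostat mice. Mouse M_770 was high within the vehicle group, and M_766 and M_768 differed little between the groups. Means were 61.0 ± 5.41 and 54.2 ± 2.23 CPM (log2 fold change -0.17, SE 0.0933, 95% interval -0.38 to 0.035, edgeR adjusted p = 0.817). Without M_770 the log2 fold change of PHF19 was -0.093.

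JARID2 and AEBP2, the subunits of the other form of the complex, overlapped between the groups. JARID2, a DNA-binding partner related to histone demethylases but inactive as one, was at 49.9, 54.6 and 44.0 CPM in the vehicle mice and at 54.9, 46.4 and 52.9 CPM in the tazemetostat mice (log2 fold change 0.053, 95% interval -0.18 to 0.29, edgeR adjusted p = 0.969). AEBP2, a zinc-finger protein that stabilises the complex, was at 36.9, 41.9 and 42.8 CPM in the vehicle mice and at 43.2, 45.5 and 41.0 CPM in the tazemetostat mice (log2 fold change 0.092, 95% interval -0.12 to 0.30, edgeR adjusted p = 0.921). Mouse M_770 was the lowest of 6 for JARID2 and mouse M_766 for AEBP2. Between mice of 1 group JARID2 had an SD of 0.153 on the log2 CPM scale, the widest of the 10 subunits, against 0.0320 for RBBP7, the narrowest.

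**Figure D3:**
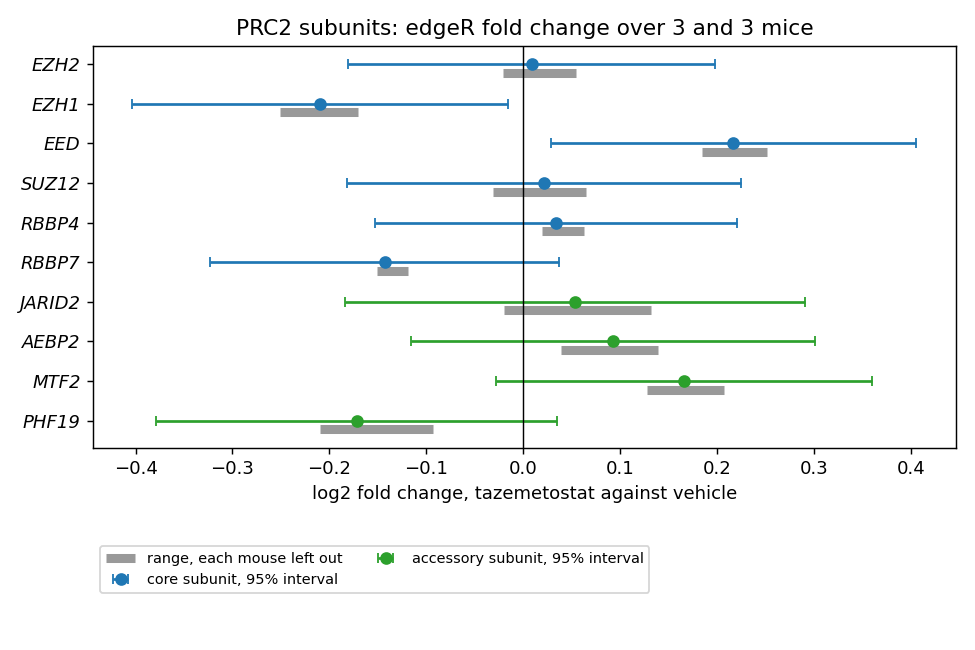
Log2 fold change of tazemetostat against vehicle for each subunit (points, edgeR, 3 against 3 mice) with its 95% interval, core subunits in blue and accessory subunits in green. Gray bars give the range when each mouse is left out in turn; EED (0.22) and EZH1 (-0.21) mark the ends, and their intervals alone leave out 0 with all libraries used.

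Core and accessory subunits did not separate by direction. Of 6 core subunits 4 had a positive log2 fold change (median 0.015) and of 4 accessory subunits 3 (median 0.073), beside 48.1% of all tested genes. Summed per kilobase, the accessory subunits stood at 0.192, 0.207 and 0.201 of the core sum in vehicle mice M_766, M_769 and M_770. In tazemetostat mice M_767, M_768 and M_774 the same ratio was 0.213, 0.209 and 0.206. The groups overlapped in this ratio, at means of 0.2 ± 0.00747 and 0.209 ± 0.00367.

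Ratios between single subunits within a mouse are given as descriptions with no test, since the pairs were chosen with their directions known. EZH2 stood at 2.92, 2.79 and 2.98 times EZH1 per kilobase in the vehicle mice and at 3.14, 3.53 and 3.46 times in the tazemetostat mice. These groups did not overlap, and the means were 2.90 ± 0.0966 and 3.37 ± 0.210. MTF2 stood at 1.20, 1.21 and 0.947 times PHF19 in the vehicle mice and at 1.39, 1.29 and 1.54 times in the tazemetostat mice, so that PHF19 was ahead per kilobase in mouse M_770 only. On the deposited length RBBP4 and RBBP7 were nearly equal per kilobase in the vehicle mice (0.985, 0.991 and 0.969). RBBP4 was ahead on that length in the tazemetostat mice (1.16, 1.05 and 1.12). EED stood at 0.303, 0.300 and 0.345 of EZH1 in the vehicle mice and at 0.389, 0.467 and 0.417 in the tazemetostat mice. All these ratios depend on the length used. On the principal transcript length RBBP7 led RBBP4, at 104 against 41 CPM per kilobase over the 6 mice. EED was at 17 and EZH1 at 22.3 on that length. Group differences of the log2 ratios of single subunits were the same on both lengths. On the log2 scale the group difference was 0.22 for EZH2 to EZH1, 0.34 for MTF2 to PHF19, 0.18 for RBBP4 to RBBP7 and 0.43 for EED to EZH1. For the last of these it was 0.34 without library C of mouse M_768.

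**Figure D4:**
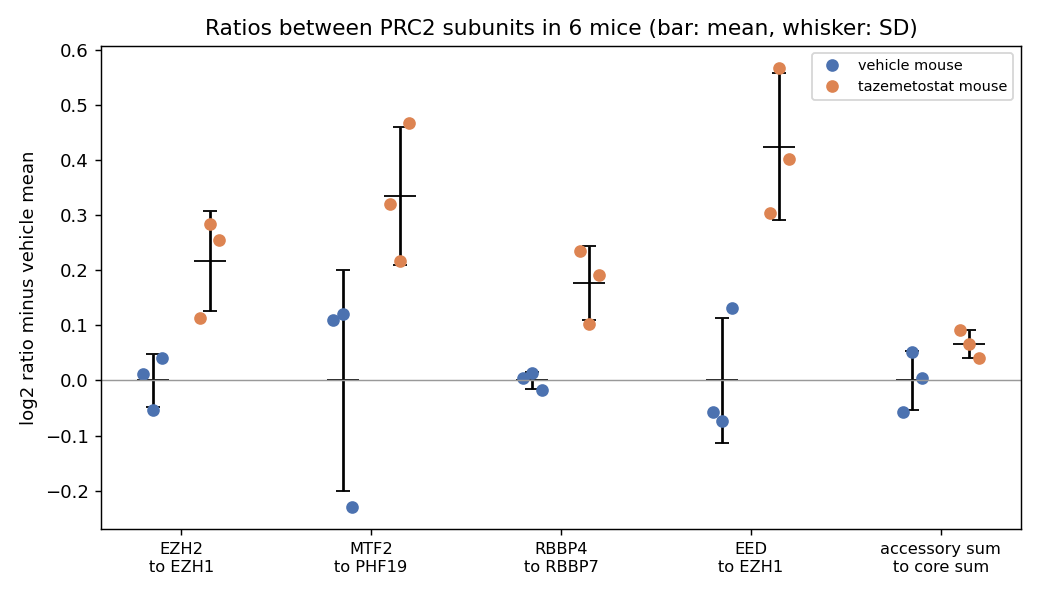
Log2 ratios between subunits per kilobase in each mouse, set relative to the vehicle mean, with group means (bars) and SD (whiskers, n = 3). The 4 ratios of single subunits do not overlap between vehicle (blue) and tazemetostat (orange), by 0.18 to 0.43 between means, while the ratio of accessory to core sums overlaps.

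Library C of mouse M_768 stood apart from the rest of the series. Its levels differed from the mean of the other libraries of that mouse by a median of 0.38 on the log2 scale over all tested genes, where the same value for the other 17 libraries ran from 0.108 to 0.254. The highest of these, 0.254 and 0.209, were libraries A and B of M_768, each set against a mean that holds library C. Libraries of the other mice reached 0.151 at most. Among the subunits library C of M_768 held the lowest of 18 values for EZH1 and JARID2 and the highest for EED, RBBP7 and AEBP2. Relative to libraries A and B of the mouse it differed by -0.42 for EZH1, -0.49 for JARID2, 0.56 for EED, 0.30 for RBBP7 and 0.20 for AEBP2, but by 0.033 for EZH2 and -0.050 for MTF2, all on the log2 CPM scale. Without it the same 5 subunits did not overlap between the groups, 2 higher and 3 lower, beside 15% of all tested genes. None of the 10 then had an unadjusted p under 0.05 (edgeR, smallest adjusted p = 0.61).

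**Figure D5:**
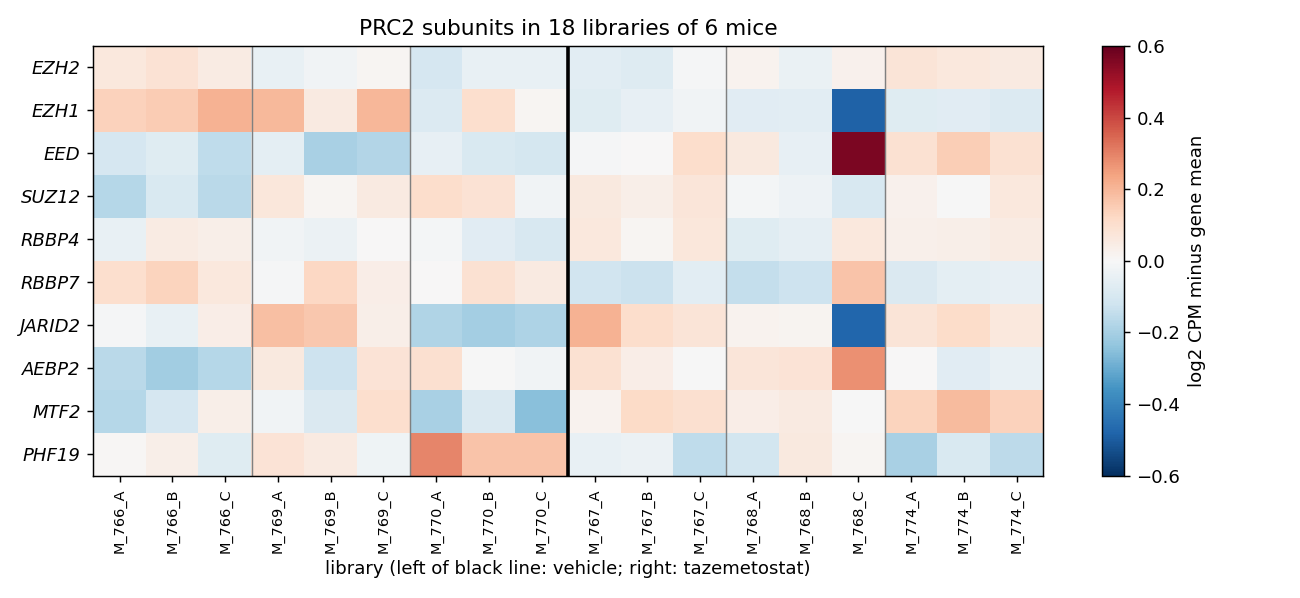
Log2 CPM of each subunit minus its mean over 18 libraries, with thin lines between mice and a black line between vehicle (left) and tazemetostat (right). Library M_768_C is the darkest column, at 0.56 for EED and -0.48 for EZH1, while EZH2 stays pale throughout.

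By the root mean square difference of centred log2 CPM over the 18 libraries, which share mice and differ in depth, the genes most like EZH2 among 9903 compared were RBM39 (0.0465), LETMD1 (0.0480) and PABPC1 (0.0507), against a median of 0.169. PABPC1 encodes a poly(A)-binding protein and RBM39 a splicing factor. All 3 were level between the groups, for example LETMD1 at a mean of 123 CPM in both. This follows from choosing them by likeness to EZH2, itself level, and is not a separate result. RBBP4 was the nearest subunit to EZH2 (0.0608, place 34), RBBP7 the next (0.101, place 942), and JARID2 the farthest (0.171, place 5075). Since EZH2 varied little over the libraries, this measure favours genes of small spread. It does not show that genes vary together.

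Other genes of the Polycomb pathway, from lists also chosen with earlier results known, gave no call either. Of 5 further PRC2 partners measured, 2 had a positive log2 fold change (median -0.11) and 0 passed. The Polycomb-like gene PHF1 averaged 43.5 ± 3.04 CPM under vehicle and 40.2 ± 3.08 CPM under tazemetostat (log2 fold change -0.11, edgeR adjusted p = 0.9), and LCORL averaged 25.4 ± 3.96 and 27.9 ± 1.46 CPM (0.14, adjusted p = 0.908). CXorf67, which encodes the PRC2 inhibitor EZHIP, was scarce, at 0.489 to 0.663 CPM under vehicle and 0.390 to 0.535 CPM under tazemetostat. Of 19 subunits of PRC1, the complex that binds the PRC2 mark and ubiquitinates histone H2A, 7 were positive (median -0.059) and 0 passed. Its members with the smallest p were the chromodomain genes CBX6 (43.8 ± 1.07 and 37.8 ± 1.90 CPM) and CBX2 (74.3 ± 3.00 and 65.4 ± 3.62 CPM), where edgeR gave an adjusted p of 0.7 and 0.766. Of 6 erasers of the Polycomb histone marks and their cofactors 5 were positive (median 0.065) and 0 passed. Among them KDM6A, an H3K27 demethylase, was at 27.4 ± 2.34 and 29.9 ± 1.66 CPM, and BAP1, an H2A deubiquitinase, at 146 ± 2.55 and 132 ± 4.65 CPM.

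RBBP4 and RBBP7 are shared with the NuRD, SIN3, CAF-1 and HAT1 complexes. Of 18 genes of these complexes 6 were positive (median -0.020) and 0 passed. CHAF1A, a chromatin assembly subunit, was at 157 ± 3.76 and 141 ± 1.78 CPM, and HAT1, the histone acetyltransferase that pairs with RBBP7, at 49.5 ± 3.07 and 55.4 ± 2.39 CPM (edgeR adjusted p = 0.8 and 0.816). EZH2 and EED are known targets of E2F factors. Of 14 genes of the E2F, RB and MYC list 7 were positive (median 0.025) and 0 passed. RB1, the repressor of E2F factors, was at 153 ± 23.3 and 189 ± 13.1 CPM, and E2F1 at 221 ± 18.7 and 192 ± 9.59 CPM (edgeR adjusted p = 0.671 and 0.764). Of 20 proliferation markers 5 were positive (median -0.077) and 0 passed, among them RRM2 (180 ± 28.7 and 215 ± 13.8 CPM) and MCM7 (645 ± 25.4 and 569 ± 25 CPM).

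The labelled cell type was checked with markers. All 8 B-cell markers were measured, with sums, in CPM without TMM factors, of 2890 to 3336 CPM under vehicle and 2968 to 3035 CPM under tazemetostat. On the TMM-scaled CPM used elsewhere, BLK was at 248 ± 13.6 and 200 ± 13.3 CPM and MS4A1 at 314 ± 71.0 and 382 ± 7.61 CPM, neither past the threshold. BLK was lower in the tazemetostat mice without overlap, as 1 of 8 B-cell markers tested, beside 6% of all tested genes. MS4A1 overlapped. The 16 T-cell markers summed to 156 to 187 and 159 to 191 CPM without TMM factors, overlapping between the groups. CD3D and CD3G were at 0 counts in all mice, and CD3E held 27 counts over the 6 mice. Most of the T-cell sum was TRBC2 (93.5 to 138 TMM-scaled CPM over the 6 mice). CD247 averaged 36.6 ± 5.82 and 49.2 ± 3.95 CPM (log2 fold change 0.43, edgeR adjusted p = 0.465). It was higher in the tazemetostat mice without overlap, as 1 of 6 T-cell markers tested, beside 6.58% of all tested genes. PRF1 averaged 4.51 ± 0.811 and 3.84 ± 0.158 CPM and overlapped. Of 23 genes tested from a list induced by stress and tissue dissociation, 21 had a positive log2 fold change (median 0.67) and 0 passed. Of these 23, 9 were higher without overlap, beside 6.58% of all tested genes, and 12 had an unadjusted p under 0.05, beside 6.55%. Their summed level, also without TMM factors, overlapped between the groups and ran from 3784 to 5374 CPM under vehicle and from 5240 to 6449 CPM under tazemetostat. ATF3 was at 13.4 ± 2.29 and 24.7 ± 1.23 CPM and ZFP36 at 26.9 ± 3.92 and 39.2 ± 2.38 CPM (edgeR adjusted p = 0.108 and 0.291). Their part in the values of the PRC2 subunits was not tested.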

How the data were processed

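Bulk RNA-seq of sorted tumour cells from 6 mice (18 libraries, total RNA, NEB NEXT Ultra II kit) was deposited by the authors as whole-number read counts for 58735 genes, not normalized, as the values show. The submitters' processing notes name hg38 and DESeq2, with no version; aligner, counter and strandedness: not given in the sources used here. Every one of the 58735 genes had the same start and end in GENCODE release 29. Gene lengths, deposited by the authors, were used for levels per kilobase. Total counts ran from 16124494 to 26336269 per library and from 55712115 to 69816184 per mouse.

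Counts were summed per mouse, since the mouse was treated, and tested in R 4.3.3 with edgeR 4.0.16 (TMM; minimum count 10 in filterByExpr; quasi-likelihood F test; Benjamini-Hochberg adjustment over 20301 genes; threshold 0.05). SE is the log2 fold change divided by the root of F, and 95% intervals use the total degrees of freedom of that test. Library values are CPM with TMM factors over 18 libraries; sums over marker and stress lists are CPM of all counts without TMM factors. Of 18 pairs of libraries within a mouse, 18 differed by a chi-square test of their counts, so no library was a copy of another. At these total counts small preparation differences also pass this test. It therefore cannot tell repeat preparations of the same RNA from separate samples. Across genes, deviations of libraries from different mice correlated on average at -0.0041 with the same letter and at 0.0021 with different letters. No large expression effect was thus shared by letter. What the letters stand for cannot be told from these values. DESeq2 1.42.0 and limma 3.58.1 served as alternatives. The steps were tested on simulated data.

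The members and gene lists were chosen with earlier results of these data known. Named were all members, from each other list the genes past the threshold or else the 2 with the smallest p, and the 3 genes most like EZH2 (mean log2 CPM of at least 3, prior count 2). CXorf67, TRBC2 and the CD3 genes were named after their values were seen. Protein sequences were not used here.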

Additional observations from a re-analysis of the deposited data

Results flagged for a closer look

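Within the 9 libraries of a group, a subunit's highest or lowest library was looked at where its gap to the next was wide against the whole range (Dixon's 95% value for 9 libraries). Of 20 such groups 5 met this, where chance gives about 1 in 20, and libraries of a mouse are not independent. All 5 were library C of tazemetostat mouse M_768. It was the lowest for EZH1 (72.9 CPM) and JARID2 (35.9 CPM) and the highest for EED (55.6 CPM), RBBP7 (274 CPM) and AEBP2 (50.6 CPM). Group values without this library are given in the text above for EZH1, EED and RBBP7; for JARID2 and AEBP2 the log2 fold changes without it were 0.094 and 0.078.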

How the results depend on the processing

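No subunit was called in any of 15 alternatives, among them DESeq2 and limma-voom, with smallest adjusted p of 0.317 for EZH1, when the 18 libraries were fitted with mouse as random effect. EED, EZH1, RBBP7, MTF2, PHF19, RBBP4 and AEBP2 kept their direction in all 15. On the log2 scale, leaving out each mouse gave -0.021 (without M_774) to 0.054 for EZH2, -0.031 (without M_766) to 0.065 for SUZ12 and -0.020 (without M_770) to 0.13 for JARID2; EZH2 was also negative without M_770 (-0.013). With upper-quartile factors EZH2 was at -0.025 and SUZ12 at -0.010. Over all genes, 7 calls became 252 without a low-count filter, 124 with DESeq2, 225 with mouse as random effect and 190 with the letter added as replicate block; leaving out a mouse gave 0 to 59. It was 0 without M_768, M_769 or M_774 (1067, 1012 and 943 genes at an unadjusted p under 0.05), 1 without M_767, 26 without M_766 and 59 without M_770. From its main value, the group difference of each log2 ratio moved by less than 1 SD between mice of a group in every setting tried. The causes were not tested. With 3 mice per group, the intervals of EZH2 allow changes of up to 1.15-fold.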
